A study of Mus musculus with 3 samples.

Results

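The Bcl2 family genes described here are the 10 family members Mcl1, Bcl2, Bcl2l1, Bcl2a1a, Bcl2a1b, Bcl2a1d, Bax, Bid, Bcl2l11 and Pmaip1. They were chosen by name, with no threshold on their values, and all 10 were present in each of the 3 deposited expression tables, which share 15904 genes and hold 18214 genes in all. Cells came from female C57Bl/6 mice aged 2 to 3 months, and the study asked what myeloid cells native to the central nervous system do in brain metastasis. A single 3′ RNA library was made from a pool of 8 samples, each stained with 35 barcoded antibodies and with its own hashing antibody.

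Brain cells came from 1 hemisphere per sample of perfused naive mice, enriched for immune cells on a percoll gradient, with 2 samples of CCR2+/- and 2 of CCR2-/- mice. Blood, freed of red cells by lysis, gave 4 samples: naive mice labelled Het or Hom and metastasis-bearing mice labelled Het or Hom, with 1 sample per group. The metastases had been started by carotid injection of E0771 mouse breast cancer cells about 2 weeks earlier, so the bearing mice differ from naive mice by both the injection and the tumor. The series text lists Cx3cr1+/-, Cx3cr1-/-, CCR2+/- and CCR2-/- mice, and the blood labels do not say whether Het and Hom refer to Cx3cr1 or to CCR2. In blood monocytes the Cx3cr1 level was 3.18 per 10000 corrected counts in naive Het against 0.426 in naive Hom, and 2.20 against 0.277 in metastasis-bearing mice. Ccr2 in the brain border macrophage and dendritic cell cluster was 2.66 and 3.16 in CCR2+/- against 0.290 and 0.470 in CCR2-/- samples. No label says that the hashtags of a group were separate animals, so the p-values given here measure only the spread between these samples.

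The tables hold 16328 cells but only 13757 different barcodes, because a single library served all of them. Shared barcodes were left out: 1601 of 5363 cells from naive blood (29.9%), 1645 of 5757 from blood of metastasis-bearing mice (28.6%) and 1726 of 5208 from brain (33.1%). With a minimum own-hashtag share of 0.5 this left 11063 cells. All deposited cells carry the authors' hashtag call of a single sample, no doublet caller was run here, and droplets with 2 cells of 1 sample may remain. Samples had a median of 3928 to 7394 raw UMIs (counted RNA molecules) per cell and 4420428 to 9267629 corrected counts per sample. Cell classes are the authors' clusters, called here by their marker genes. Of 12 neutrophil markers, 10 in the neutrophil cluster of each blood table were raised at least 2-fold over the other clusters. All levels below are corrected counts per 10000 corrected counts of the class in that sample. They are therefore shares of a class's RNA and not molecules per cell.

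Bcl2 family proteins decide whether the mitochondrial outer membrane is opened, the step that commits a cell to apoptosis. Survival members (MCL1, BCL2, BCL-XL from Bcl2l1 and the A1 proteins from the Bcl2a1 genes) hold the pore-forming effector BAX in check. BH3-only members either release or activate it: BIM (Bcl2l11) binds all survival members, NOXA (Pmaip1) chiefly MCL1 and A1, and BID links death receptors to mitochondria. Blood neutrophils live for hours to days, whereas naive lymphocytes and microglia can live far longer, and MCL1, a protein with a very short half-life, is a known survival factor of neutrophils.

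The genes lie apart in the genome, except for the mouse Bcl2a1 copies. On GRCm38.p6 (RefSeq gene models), Mcl1 lies at chr3:95656944-95663179, Bcl2 at chr1:106538176-106714290, Bcl2l1 at chr2:152758732-152833803, Bcl2l11 at chr2:128126038-128162547, Bax at chr7:45461695-45466903 and Bid at chr6:120893119-120917062. The 3 Bcl2a1 genes lie within 484.6 kb of chromosome 9, at chr9:88723288-88731850 (Bcl2a1d), chr9:88956920-88962416 (Bcl2a1a) and chr9:89199273-89207838 (Bcl2a1b). Their stretches of 104 bases upstream of the start are printed because the 3 genes were all lower in neutrophils than in the monocyte cluster, below. These stretches lie outside the genes, so their likeness does not show how well reads can be assigned to each copy. Each is given 5′ to 3′ on the gene's strand, in RefSeq sequence of GRCm38.p6, at chr9:88956816-88956919 (plus strand) for Bcl2a1a, chr9:89199125-89199228 (plus strand) for Bcl2a1b and chr9:88731851-88731954 (minus strand) for Bcl2a1d. Capitals mark GAGGAAGT, the purine-rich core that ETS factors such as PU.1 recognize.
Bcl2a1a: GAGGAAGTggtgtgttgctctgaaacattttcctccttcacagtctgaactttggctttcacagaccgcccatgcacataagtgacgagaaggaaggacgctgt
Bcl2a1b: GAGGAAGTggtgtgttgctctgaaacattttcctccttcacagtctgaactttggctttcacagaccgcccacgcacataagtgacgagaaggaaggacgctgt
Bcl2a1d: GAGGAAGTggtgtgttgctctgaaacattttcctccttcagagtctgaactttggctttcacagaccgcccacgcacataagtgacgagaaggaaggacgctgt
Bcl2a1a and Bcl2a1b were identical at 103 of these 104 bases, Bcl2a1b and Bcl2a1d at 103, and Bcl2a1a and Bcl2a1d at 102. The stretch ends at the base before the start in Bcl2a1a and Bcl2a1d and 45 bases before it in Bcl2a1b. GAGGAAGT was searched on both strands of promoter windows running from 250 bases before to 50 after the start. It was found in 3 of 12 promoters of the 9 members with an entry, all 3 of them Bcl2a1 promoters, and in 1052 of 32851 promoters in all (3.2%). A match of letters is a description and not a binding site. The transcripts of the 3 genes were not compared here, so how surely reads were assigned to each copy is not known. The separate values of Bcl2a1a, Bcl2a1b and Bcl2a1d are therefore uncertain.

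Mcl1 took a larger share of the RNA of blood neutrophils than of the B cell, T cell (or T and NK cell) and monocyte clusters, in all 4 samples. The neutrophil levels were 24.98 and 24.63 in naive Het and Hom and 26.13 and 27.28 in metastasis-bearing Het and Hom blood. B cells held 7.07 and 7.54 in naive and 6.09 and 6.79 in metastasis-bearing mice, and monocytes 7.44 and 7.10 and then 6.39 and 5.89. The T and NK cell cluster of naive blood held 3.1 and 2.83, and the T cell cluster of metastasis-bearing mice 2.17 and 2.86. No sample of any of these classes reached the neutrophil range. The mean ratio of neutrophils was 3.40 to B cells, 8.35 to T and NK cells and 3.41 to monocytes in naive mice, and 4.15, 10.7 and 4.35 in metastasis-bearing mice. Neutrophil RNA in the droplets of other cells was measured by S100a8, an abundant neutrophil alarmin. Its level in B cells was at most 1.09% of that in neutrophils, in monocytes at most 2.57% and in T cells at most 0.571%, while Mcl1 in naive B cells stood at 28.3% and 30.6% of its neutrophil level.

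Bcl2 showed the opposite order, with the lowest levels of the 4 classes in neutrophils and the highest in T cells. Neutrophils held 14 and 11 corrected counts in naive Het and Hom (levels 0.0402 and 0.0679) and 9 and 11 in metastasis-bearing mice (0.027 and 0.0326). T cells, whose long survival depends on BCL2 downstream of the interleukin 7 receptor, held 3.26 and 3.97 in naive blood and 6.90 and 4.75 in metastasis-bearing mice. B cells lay between them at 1.30 and 1.46, then 1.66 and 1.78. Monocytes held 0.941 and 0.797 in naive mice and 0.326 and 0.285 in metastasis-bearing mice, still above every neutrophil value. The mean neutrophil level was 24.7-fold below B cells, 62.5-fold below T and NK cells and 15.0-fold below monocytes in naive blood, and 51.5-fold, 165-fold and 9.22-fold below in metastasis-bearing blood. These folds rest on 9 to 14 neutrophil counts per sample. With the shared barcodes left in, the log2 differences shrank from -4.63, -5.97 and -3.90 to -3.13, -4.58 and -2.39 in naive and from -5.69, -7.37 and -3.21 to -4.80, -6.37 and -2.73 in metastasis-bearing mice, and kept their direction.

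Bcl2l1, the BCL-XL gene, was higher in neutrophils than in B cells and had few counts in each class. In neutrophils it had 113 counts in naive Het (level 0.325), 17 in naive Hom (0.105), and 43 in each sample of metastasis-bearing mice (0.129 and 0.128). B cells held 0.0384 and 0.0103 in naive and 0.0233 and 0.0344 in metastasis-bearing mice, so neutrophils were 7.81-fold and 4.12-fold higher with no overlap. Against monocytes (0.0560 and 0.0546, then 0.0766 and 0.0638) the share in neutrophils was also higher in each sample, while T and NK cells of naive blood (0.0683 and 0.128) overlapped them. Platelets, which rely on BCL-XL for their life span, held 1.33 over the naive and 1.32 over the metastasis-bearing samples.

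The Bcl2a1 genes, NF-kB targets of myeloid and activated lymphoid cells, were lower in neutrophils than in the monocyte cluster taken as a whole. For Bcl2a1b, neutrophils held 0.0805 and 0.142 in naive and 0.168 and 0.213 in metastasis-bearing mice. Monocytes held 1.12 and 0.928, then 0.485 and 0.285, above all neutrophil samples. B cells, at 0.259 and 0.221 and then 0.330 and 0.426, lay between them in naive mice and overlapped monocytes in metastasis-bearing mice. Bcl2a1d was carried by 7 and 1 counts in naive and 19 and 5 in metastasis-bearing neutrophils, and it was 48.4-fold below naive monocytes (0.952 and 0.753) and 11.3-fold below monocytes of metastasis-bearing mice (0.460 and 0.306). Bcl2a1a was 8.97-fold and 3.08-fold below monocytes and had 0 and 1 counts in naive B cells and none in naive T and NK cells, for which no ratio is given.

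Among the death-promoting members, Bax took a smaller share of RNA in neutrophils than in each other class compared and Bid a larger one. Bax levels were 0.270 and 0.259 in naive and 0.315 and 0.391 in metastasis-bearing neutrophils. The lowest sample among the other classes held 0.835 (T cells of metastasis-bearing Het mice) and the highest 2.04 (monocytes of the same sample). Neutrophils were thus 4.21-fold below B cells, 4.05-fold below T and NK cells and 6.81-fold below monocytes in naive mice, and 3.14-fold, 2.68-fold and 5.70-fold below in metastasis-bearing mice. Bid held 0.532 and 0.877, then 0.573 and 0.522 in neutrophils, above every sample of B cells (0.213 to 0.323) and T cells (0.162 to 0.220), and above monocytes (0.353 to 0.448) by 1.67-fold and 1.45-fold on average. Pmaip1, the NOXA gene, held 0.276 and 0.512, then 0.339 and 0.216 in neutrophils and 0.0737 to 0.0960 in B cells, while monocytes (0.238 to 0.360) overlapped neutrophils. Bcl2l11, the BIM gene, held 0.284 and 0.512, then 0.360 and 0.421 in neutrophils, which on average was between 0.758 and 1.56 times its level in each other class.

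**Figure D1:**
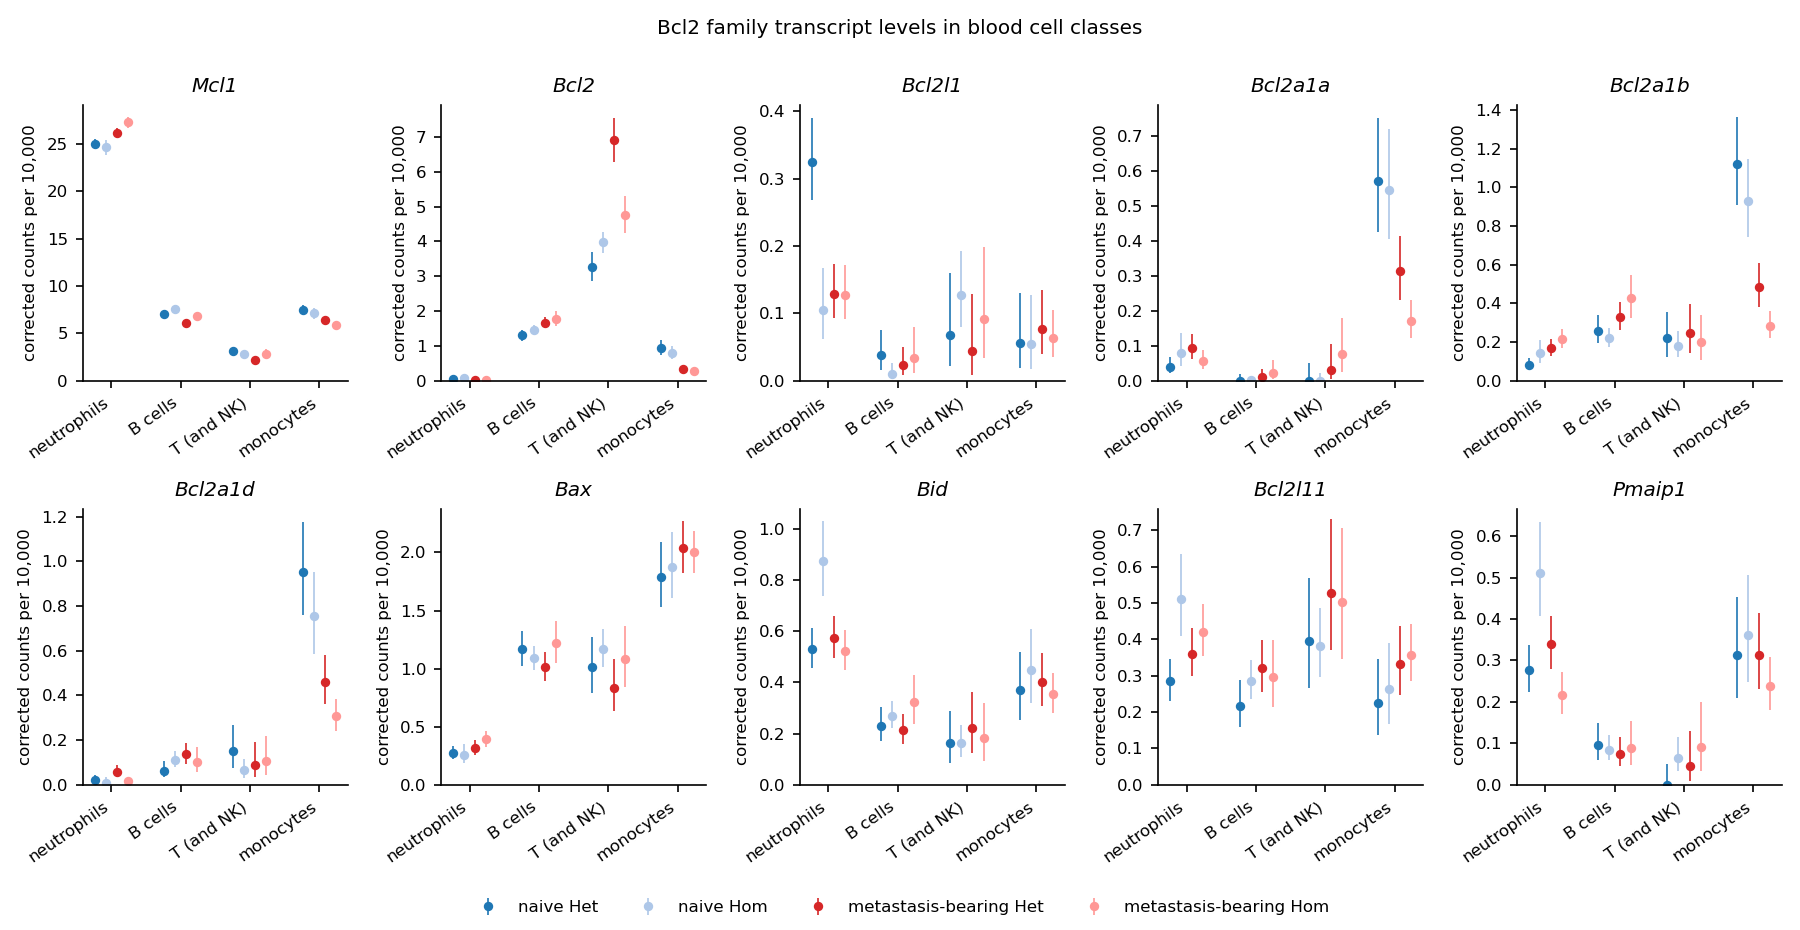
Level of each of the 10 genes (corrected counts per 10000, 1 panel per gene) in the neutrophil, B cell, T cell and monocyte clusters of the 4 blood samples, with 95% Poisson intervals that cover counting error only. Mcl1 in neutrophils sits between 24.63 and 27.28, above all other classes, while Bcl2 and Bax are lowest in neutrophils.

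How many genes differ between these clusters sets how the counts of members can be read. A gene was counted where it was at least 2-fold apart in the same direction in both samples of a table, with no test, since the clusters were made from the same RNA. Of the 10 members, 8 in naive blood passed against B cells (5 higher, 3 lower in neutrophils), where 59.3% of 10150 genes did. The 5 include Bcl2a1a, which had 0 and 1 counts in those B cells. Against T and NK cells 7 passed (59.7% of genes), among them Bcl2a1a with no count in those cells, and against monocytes 6 (1 higher, 5 lower; 49.6%). In metastasis-bearing mice 7 passed against B cells (57.3%), 5 against T cells (55.5%) and 5 against monocytes (50.3%). Since about as large a share of all genes passed, nothing particular to the family is read from these counts. The median log2 difference of the 10 members was 1.03, 0.46 and -1.30 in naive and 0.69, 0.17 and -0.49 in metastasis-bearing mice, against medians over all genes of -1.05, -1.02 and -0.84 and then -0.79, -0.69 and -0.59.

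The medians over all genes thus lay below 0 in each comparison. S100a8 and S100a9 together held 2109 and 1789 of each 10000 neutrophil counts in naive and metastasis-bearing mice, and their part in these medians was not tested. Relative to the median of all genes, the 3 members with the clearest order kept their direction in every class. Mcl1 was then higher by a log2 of 2.61 to 4.11, Bcl2 lower by -2.62 to -6.68 and Bax lower by -0.73 to -1.93. The size of a cell's RNA pool is part of each level. Neutrophils had a median of 2964 and 3185 raw UMIs in naive and metastasis-bearing mice, B cells 4810 and 4258, T cells 7762 and 7614 and monocytes 11710 and 13760.

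Against monocytes, the order of several members depended on the scale. The level times the mean raw UMI total of the class gives an estimate of the raw UMIs counted per cell. It is not the number of molecules that a cell holds. For Mcl1, neutrophils came to 8.09 and 7.23 in naive and 8.55 and 9.15 in metastasis-bearing mice, and monocytes to 8.18 and 9.10 and then 8.68 and 8.60, so the classes overlapped. B cells (3.03 to 4.32) and T cells (1.74 to 2.61) stayed below neutrophils on this scale. The opposite check held depth alike: among cells of 2500 to 6000 raw UMIs, neutrophils held 24.8, 25, 25.5 and 27.0 and monocytes 9.45, 7.27, 6.51 and 5.12, the latter from 8 to 17 cells per sample. The Mcl1 share was thus higher in neutrophils at matched depth too, while the estimated number of Mcl1 UMIs per cell overlapped that of monocytes.

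Bid turned over on the per-cell scale, with 0.172 and 0.257, then 0.188 and 0.175 estimated UMIs per neutrophil against 0.407 and 0.574, then 0.546 and 0.515 per monocyte. Against B cells Bid stayed higher in neutrophils in 3 samples and was 0.175 against 0.182 in metastasis-bearing Hom mice. Bcl2l1 was below monocytes in 3 of 4 samples (0.0308 against 0.0700 in naive Hom, 0.0422 against 0.104 and 0.0428 against 0.0931 in metastasis-bearing mice) and above in naive Het (0.105 against 0.0616). Pmaip1 came to 0.0726 to 0.151 in neutrophils and 0.345 to 0.462 in monocytes. Bcl2 (at most 0.0199) and Bax (at most 0.131) stayed below every sample of every other class on this scale too.

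**Figure D2:**
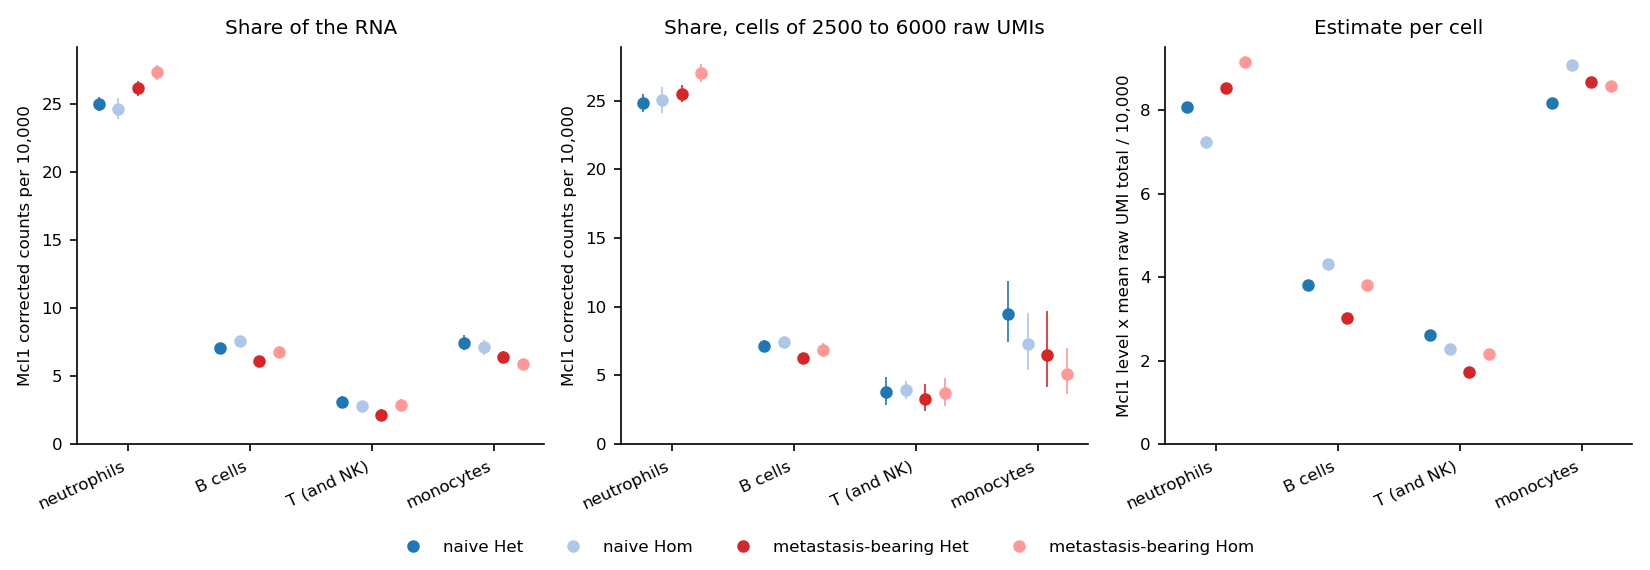
Mcl1 in the 4 blood clusters and 4 blood samples on 3 scales: share of the class's corrected counts, the same in cells of 2500 to 6000 raw UMIs, and the estimate of UMIs per cell. On the first 2 scales neutrophils stand alone near 25, and on the third they overlap monocytes.

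To test the order on labels that did not use RNA, cells were grouped by the authors' antibody gates. Ly6G marks neutrophils, B220 marks B cells, CD4 and CD8 mark T cells, and Ly6C-high and Ly6C-low are the 2 monocyte gates, for classical and patrolling cells. Of the cells in the Ly6G gate, 1090 of 1113 in naive and 1543 of 1588 in metastasis-bearing blood lay in the neutrophil cluster. The Ly6C-high gate had 173 of 187 and 439 of 478 cells in the monocyte cluster, but the Ly6C-low gate only 64 of 131 and 67 of 246. The other Ly6C-low cells of metastasis-bearing mice included 72 low-RNA, 50 B, 30 T or NK cells and 19 platelets by cluster, so that gate stands for a mixture. The Ly6G gate was compared with the mean of the 5 other gates by limma, with the 2 hashed samples of a table as a block and p-values adjusted over all genes by the Benjamini-Hochberg method. The samples of a table carry different genotypes, and each gate gives 2 values. In naive mice 4 of the 10 members were higher, where 13.8% of 11424 genes were, and 3 were lower, where 37.9% were. In metastasis-bearing mice 2 were higher (14.5% of 11323 genes) and 2 were lower (31.4%).

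Mcl1 held 24.7 and 24.6 in the naive Ly6G gate against 2.91 to 8.66 over the 10 other values, a log2 difference of 2.17 (SE 0.0947; limma adjusted p = 1.23e-07). In metastasis-bearing mice it held 25.9 and 26.6 against 3.02 to 8.32, a difference of 2.30 (SE 0.153; limma adjusted p = 1.34e-06). Mcl1 passed against each of the 5 gates on its own in both tables, with the smallest difference against the Ly6C-low gate (1.62 and 1.83) and the largest against a T cell gate (3.03 against CD8 in naive and 2.90 against CD4 in metastasis-bearing mice). The order of the Mcl1 levels by antibody label was thus the order found between clusters. Since the Ly6G gate holds largely the cells of the neutrophil cluster, the 2 orders are not independent.

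Bcl2 held 0.0369 and 0.0813 in the naive Ly6G gate against 0.230 to 4.75 elsewhere, with no overlap (log2 difference -4.57, SE 0.187; limma adjusted p = 8.73e-08). In metastasis-bearing mice it held 0.0279 and 0.0496 against 0 to 7.36 (-4.92, SE 0.928; limma adjusted p = 0.00157). The overlap in metastasis-bearing mice comes from the Ly6C-high gate, where the Het sample had no Bcl2 count and the Hom sample a level of 0.366. Against that gate alone the difference was -0.24 (limma adjusted p = 0.907), and against the same gate in naive mice -1.93, which passed. Bcl2 thus passed against 5 of 5 gates in naive and against 4 of 5 in metastasis-bearing mice.

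Bax held 0.256 and 0.300 in the naive Ly6G gate against 0.766 to 1.98 (log2 difference -2.10, SE 0.136; limma adjusted p = 1.38e-06). In metastasis-bearing mice it held 0.307 and 0.429 against 0.732 to 2.00 (-1.64, SE 0.191; limma adjusted p = 6.88e-05). With the shared barcodes left in, Mcl1 (1.95 and 2.12), Bcl2 (-3.84 and -4.40) and Bax (-1.80 and -1.63) passed in both tables too. Bax passed against each of the 5 gates in both tables, so the effector gene was lower in neutrophils than in every gate compared. Bid, which death-receptor caspases cleave into its active form, was higher by 1.72 in naive (0.526 and 0.907 against 0.0777 to 0.455; SE 0.324, limma adjusted p = 0.00145) and by 1.19 in metastasis-bearing mice (0.580 and 0.511 against 0.0504 to 0.399; SE 0.405, limma adjusted p = 0.0349). The second call for Bid did not pass without the block (limma adjusted p = 0.0511), without the filter on low counts (0.0609) or without the variance trend (0.0637). Against single gates, Bid passed in naive mice against the B220, CD4, CD8 and Ly6C-low gates. In metastasis-bearing mice it passed only against the mixed Ly6C-low gate. Against the Ly6C-high gate it did not pass in naive (0.63, limma adjusted p = 0.263) or metastasis-bearing mice (0.50, limma adjusted p = 0.509).

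Pmaip1 and Bcl2l1 were higher in the naive Ly6G gate only by the narrowest margins. Pmaip1 held 0.268 and 0.482 against 0 to 0.413, which overlap, with a log2 difference of 2.08 (SE 0.724; limma adjusted p = 0.0348). It did not pass without the block (0.0727), the filter (0.0612) or the trend (0.0513). Bcl2l1 held 0.311 and 0.106 against 0.0160 to 0.161 (1.73, SE 0.621; limma adjusted p = 0.0396) and did not pass without the filter (0.0615). In metastasis-bearing mice the differences were 1.1 for Pmaip1 (limma adjusted p = 0.105) and 1.60 for Bcl2l1 (0.135), which did not pass, and the difference between the tables was not tested. With all deposited cells, Pmaip1 in metastasis-bearing mice was higher by 0.76 and passed (limma adjusted p = 0.0245). Bcl2l11 was not called in either table (0.34 and 0.19; limma adjusted p = 0.304 and 0.572).

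Of the Bcl2a1 genes, Bcl2a1d was lower in the naive Ly6G gate than in the mean of the others (-1.88, SE 0.519; limma adjusted p = 0.0122), while Bcl2a1b (-1.02, adjusted p = 0.155) and Bcl2a1a (0.73, adjusted p = 0.349) were not called. Bcl2a1a went the other way against T cell gates, where it was called higher against CD4 (limma adjusted p = 0.0224) and CD8 (0.00585). It had 15 and 19 counts in the naive Ly6G gate, 0 and 1 in the CD4 gate and none in the CD8 gate, so no size is given. Against the mixed Ly6C-low gate, naive neutrophils were lower for Bcl2a1b by -3.50 (limma adjusted p = 0.00366), for Bcl2a1d by -4.30 (0.000741) and for Bcl2a1a by -2.78 (0.0196). In metastasis-bearing mice none of the 3 passed against that gate, with differences of -1.08 for Bcl2a1b, -1.78 for Bcl2a1d and 1.02 for Bcl2a1a, and only 67 of its 246 cells lay in the monocyte cluster. The sign for Bcl2a1a rests on the Het sample, which had no count in that gate. The Hom sample held 0.269 there, above the Ly6G gate values of 0.0992 in Het and 0.0729 in Hom. Against the Ly6C-high gate, most of whose cells lay in the monocyte cluster, none of the 3 passed in either table. The naive differences were 0.14 for Bcl2a1b (limma adjusted p = 0.904), -0.42 for Bcl2a1a (0.716) and -1.83 for Bcl2a1d (0.0525). In metastasis-bearing mice they were 0.59 (limma adjusted p = 0.676), -0.23 (0.923) and -1.44 (0.397).

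**Figure D3:**
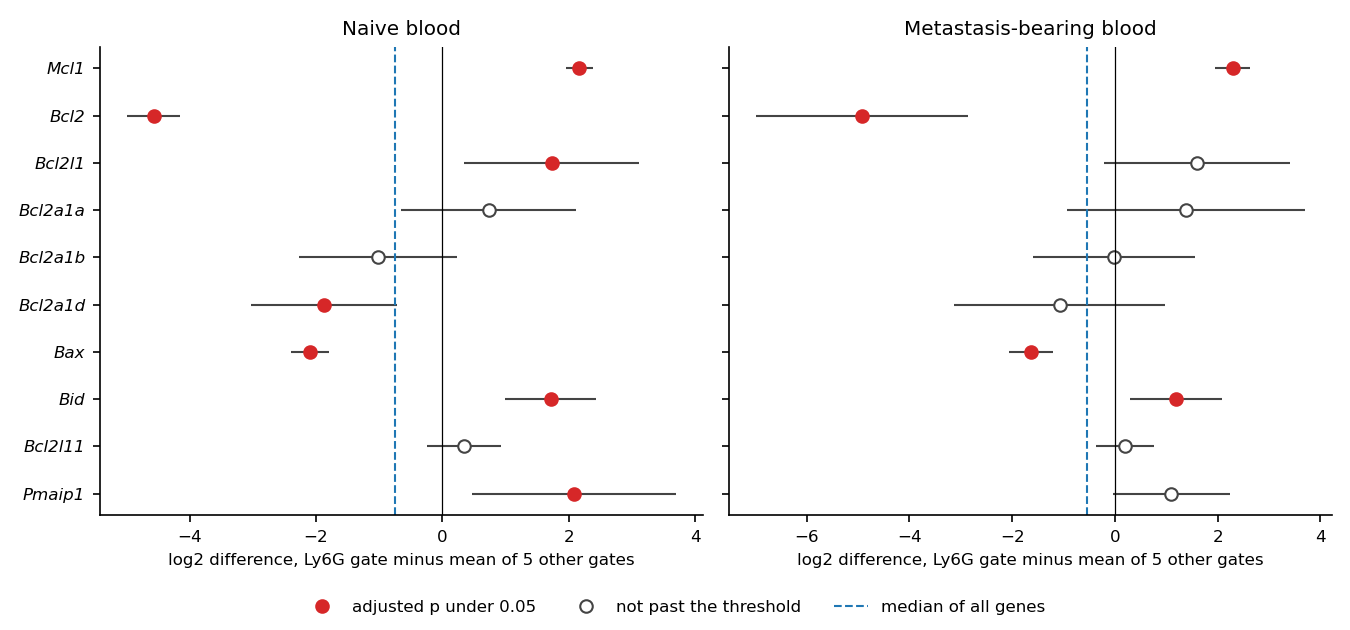
Log2 difference of the Ly6G gate minus the mean of the 5 other antibody gates for the 10 genes in naive and metastasis-bearing blood, with 95% confidence intervals from limma and red marking an adjusted p under 0.05. Mcl1 and Bid lie to the right and Bcl2 and Bax to the left in both tables, and the dashed line gives the median of all genes, -0.75 and -0.55.

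The wider pathway was described by 5 lists of other apoptosis and survival genes, in the same gate comparison. Survival cytokine receptors had 5 of 8 higher and 1 lower in naive and 5 of 8 higher and 3 lower in metastasis-bearing neutrophils. Of all genes, 13.8% and 14.5% were higher and 37.9% and 31.4% lower. The median log2 differences of the list were 1.28 and 1.62. The 5 include Csf1r, named after its values were seen, whose naive mean level was 1.745 in the Ly6G gate against 2.627 in the others. Between clusters, Csf1r was at least 2-fold lower in neutrophils than in monocytes in both tables. Csf3r, the receptor of the neutrophil growth factor G-CSF, was higher by 5.22 and 4.97, and Csf2rb, a shared chain of the GM-CSF receptor, by 3.68 and 3.45. Il7r, the receptor of the T cell survival cytokine interleukin 7, was lower by -3.63 and -3.93. Against the monocyte cluster, Csf3r alone of this list was at least 2-fold higher in neutrophils in both tables. The list medians were then -0.04 and -0.11, beside -0.84 and -0.59 over all genes. In the gate comparison the lists are read beside the medians of all genes, -0.75 and -0.55, and no list was tested as a set.

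Death receptor genes had 2 higher and 4 lower of 10 tested in naive and of 8 tested in metastasis-bearing mice, where 37.9% and 31.4% of all genes were lower. The higher genes were Tnfrsf1a, a receptor of TNF, by 2.76 and 2.66, and Fas by 2.23 and 2.33. Against the monocyte cluster, Fas was at least 2-fold higher in neutrophils in both tables, and Tnfrsf1a was not. The lower genes included Fadd, the adaptor that recruits caspase 8, by -3.50 and -2.45, and Ripk3, the kinase of necroptosis, by -3.53 and -2.92. The remaining genes called lower, named after their values were seen, were Casp8 (-1.93 and -1.67) and the adaptor Tradd (-1.23 and -1.16). The kinase gene Ripk1 (0.07 and 0.22) and Cflar, which encodes the caspase 8 inhibitor FLIP (0.09 and 0.16), were not called. Of the core machinery 2 of 16 were higher in both tables, and 7 and then 5 were lower. Cycs, which encodes cytochrome c, was lower by -2.42 and -2.06. Endog, a mitochondrial nuclease, was lower by -3.64 and -3.88, and Casp6, an executioner caspase, by -2.50 and -2.52.

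Of 15 further Bcl2 family genes 9 were tested in each table. Bnip3, a mitochondrial member of the hypoxia response, was higher by 3.05 and 2.21, and Bcl2l12 was lower by -2.33 and -2.60. Bak1, which encodes the other pore-forming effector and is named after its values were seen, was lower by -0.87 in naive mice (limma adjusted p = 0.0116), close to the median of all genes, and differed by -0.39 in metastasis-bearing mice, where it was not called. Among 8 known regulators of the members, Trp53, which drives Bax and Pmaip1 after DNA damage, was lower by -2.89 and -2.70, and Foxo3, which can drive Bcl2l11, was higher by 1.35 and 1.45. Huwe1, a ligase that marks MCL1 for degradation, was lower by -1.33 and -1.63.

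The 3 Bcl2a1 genes and Bcl2 also differed within the monocyte cluster, along the antibody split into classical Ly6C-high and patrolling Ly6C-low cells. In naive blood Bcl2a1b held 0.0540 and 0.254 in the Ly6C-high gate (72 and 101 cells of Het and Hom) and 1.73 and 2.67 in the Ly6C-low gate (25 and 39 cells). Bcl2a1d held 0.135 and 0.274 against 1.48 and 2.00, and Bcl2a1a 0.0540 and 0.215 against 0.903 and 1.08. Both Ly6C-low values lay above both Ly6C-high values for each copy, and how surely reads were assigned to each copy is not known. Bcl2 followed the same split, with 0.243 and 0.215 against 1.56 and 1.13, whereas Mcl1 (6.77 and 6.53 against 8.13 and 7.80) differed less and Bax (1.92 and 2.05 against 2.14 and 1.69) overlapped. The gates differed in their RNA as labelled: Ly6c2 held 21.3 and 21.0 in the Ly6C-high and 0.821 and 1.59 in the Ly6C-low gate, and Nr4a1, a transcription factor that patrolling monocytes need, 1.51 and 1.17 against 3.61 and 4.57.

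In metastasis-bearing Hom blood the monocyte cluster showed the same order, with Bcl2a1b at 0.106 in 387 Ly6C-high cells and 1.29 in 54 Ly6C-low cells, Bcl2a1d at 0.175 and 1.1, and Bcl2 at 0.154 and 0.492. The metastasis-bearing Het sample had 52 Ly6C-high cells, with Bcl2a1b at 0.0791 and no Bcl2 count, and only 13 Ly6C-low cells. A further 224 cells of its monocyte cluster stood in the authors' NK1.1 gate, where Bcl2a1b held 0.449 and Bcl2 0.257, so the gates of that sample do not split its monocytes as those of the others do. These splits were compared with 1 value per gate and sample and were not tested.

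**Figure D4:**
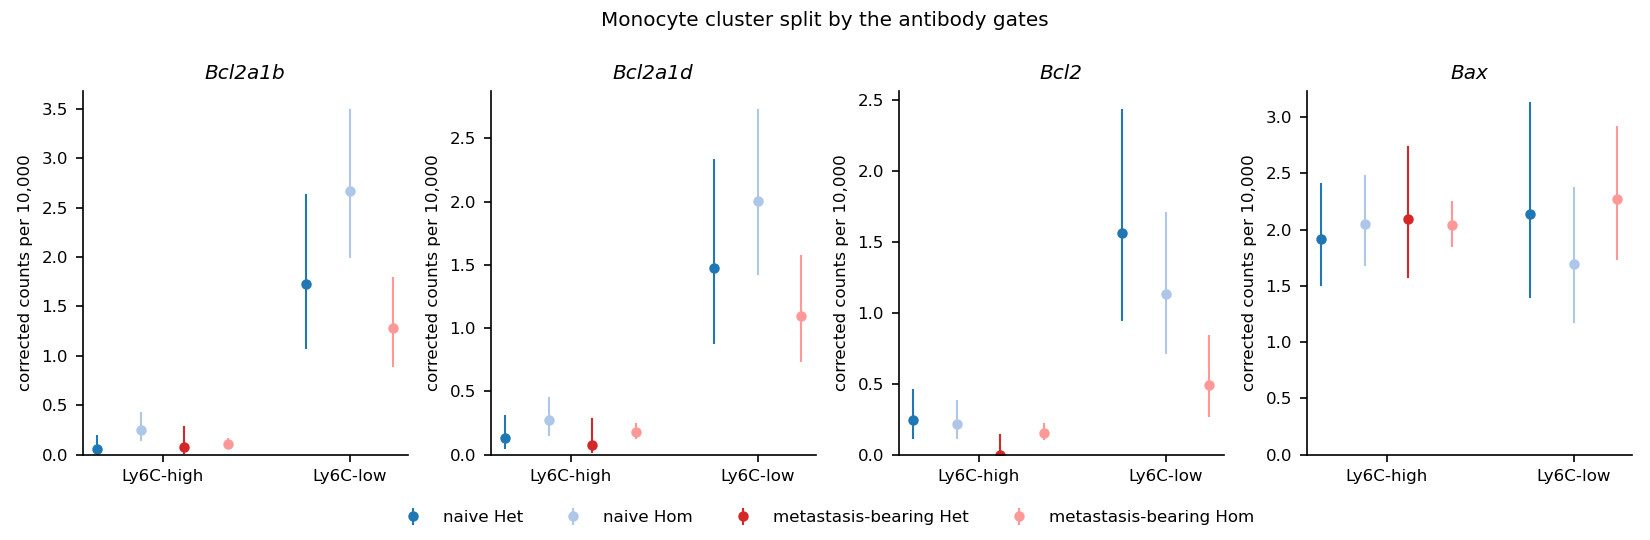
Levels of Bcl2a1b, Bcl2a1d, Bcl2 and Bax (corrected counts per 10000) in Ly6C-high and Ly6C-low cells of the blood monocyte cluster, 1 point per blood sample with 95% Poisson intervals; the 13 Ly6C-low cells of metastasis-bearing Het blood are left out. Bcl2a1b in naive mice runs from 0.0540 and 0.254 in Ly6C-high to 1.73 and 2.67 in Ly6C-low cells, while Bax overlaps.

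Monocytes of metastasis-bearing mice carried less Bcl2a1 and Bcl2 RNA than those of naive mice, in both genotypes. Each group is 1 sample, so the ratios have counting intervals (95%, exact binomial from the counts, covering counting error only) and no test. The ratio for Bcl2a1b was 0.433 (0.317 to 0.590) in Het and 0.307 (0.220 to 0.428) in Hom mice, and for Bcl2 0.346 (0.239 to 0.496) and 0.358 (0.253 to 0.505). Bcl2a1a had ratios of 0.548 and 0.312 and Bcl2a1d of 0.483 and 0.407. Mcl1 (0.860 and 0.830) and Bax (1.14 and 1.06) moved less. The summed level of Ly6c-high monocyte markers in the cluster was 71.6 in naive and 163 in metastasis-bearing mice, and that of Ly6c-low monocyte markers 18.8 and 10.9. The part of this change in monocyte makeup in the lower Bcl2a1 and Bcl2 levels was not tested.

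Mcl1 in neutrophils was close to level between metastasis-bearing and naive mice, with a ratio of 1.05 (1.02 to 1.08) in Het and 1.11 (1.07 to 1.15) in Hom. Bcl2a1b had ratios of 2.09 (1.30 to 3.41) and 1.5 (0.929 to 2.52), the second with an interval that spans 1. Other members went different ways in Het and Hom. Bcl2l1 had a ratio of 0.397 (0.273 to 0.569) in Het and 1.22 (0.679 to 2.27) in Hom, Pmaip1 of 1.23 (0.928 to 1.63) and 0.422 (0.304 to 0.586), and Bid of 1.08 and 0.595 (0.474 to 0.748). In B cells Bcl2 had ratios of 1.27 (1.09 to 1.49) and 1.22 (1.05 to 1.41). The naive and metastasis-bearing tables were corrected separately. In 845 barcodes that stood in both, the median gene differed by a log2 of 0.02 between the tables and no gene of 9320 passed 1.5-fold.

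Between Hom and Het blood, 1 sample each, a member was counted where the ratio passed 1.5-fold with at least 20 corrected counts in the higher sample. In naive neutrophils 5 of 7 members with enough counts passed, where 26% of 6447 genes did. Pmaip1 had a Hom to Het ratio of 1.86 (1.37 to 2.52), Bcl2l11 of 1.80 (1.33 to 2.44) and Bid of 1.65 (1.32 to 2.06), all BH3-only genes, and Bcl2a1b one of 1.77 (0.971 to 3.18). Bcl2l1 went the other way at 0.323 (0.182 to 0.541), and Mcl1 was level at 0.986 (0.95 to 1.02). The naive Hom sample had 377 neutrophils and the Het sample 795, and the median gene was higher in Hom by a log2 of 0.19.

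In neutrophils of metastasis-bearing mice 2 of 8 members passed (12.2% of 7013 genes), Pmaip1 at 0.638 (0.469 to 0.864) and Bcl2a1a at 0.606 (0.323 to 1.11), with Bid at 0.911 and Bcl2l1 at 0.988. In monocytes of metastasis-bearing mice 3 of 9 passed (11.2%), all of them Bcl2a1 copies and lower in Hom: Bcl2a1b at 0.587 (0.416 to 0.827), Bcl2a1a at 0.544 (0.349 to 0.843) and Bcl2a1d at 0.666 (0.474 to 0.937). No member of 9 passed in naive monocytes (15.4%). One member passed in each of naive B cells (Bcl2a1d at 1.77, 0.934 to 3.59; 1 of 8, 7.74%), B cells of metastasis-bearing mice (Bid at 1.52, 1.00 to 2.28; 1 of 7, 10.1%) and naive T and NK cells (Bcl2l1 at 1.87, 0.690 to 6.31; 1 of 7, 13.6%). In T cells of metastasis-bearing mice none of 4 passed (13.7%), and Bcl2 stood at 0.689 (0.595 to 0.796).

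Brain Mcl1 was higher in microglia and the border cluster than in the T and NK marker, endothelial, smooth muscle and choroid plexus clusters. The low-RNA cluster, which has no class name, held still more Mcl1. Its samples ran from 17.11 to 19.68, above the microglia range of 14.5 to 15.71. Bcl2 was highest in the cluster with T and NK cell markers. Over all 4 samples Mcl1 was 15.3 in microglia, the resident macrophages of brain tissue, 11.6 in the cluster of border macrophages and dendritic cells, and 4.25 in the cluster with T and NK cell markers. It was 3.21 in endothelial cells, 1.26 in smooth muscle cells and 0.0803 (2 counts) in choroid plexus cells. The 36 neutrophils of the brain table held 8.92, 15.4, 2.44 and 12.9 in samples of 9, 8, 2 and 17 cells, so their order against microglia cannot be set. The Mcl1 share of microglia also lay above that of blood B and T cells, which comes from tables corrected separately and was not tested. The cluster with T and NK markers has 4 red cell markers among its top 10 genes and 1 T cell marker, and its values are those of a mixed cluster.

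Bcl2a1b was highest in the border macrophage and dendritic cell cluster at 6.02, followed by microglia at 4.16 and the T and NK marker cluster at 2.03, and it was 0.203 in endothelial cells. Samples of the low-RNA cluster held 1.773 to 2.307 of Bcl2a1b, which overlapped the T and NK marker cluster (1.423 to 2.225). Bcl2a1d and Bcl2a1a were highest in the border cluster as well, at 2.65 and 1.31, with 0.220 and 0.474 in microglia. None of the 3 had a count in choroid plexus (29 cells) or smooth muscle cells (47 cells). Bcl2 held 5.56 in the T and NK marker cluster, 0.488 in the border cluster and 0.152 in microglia, and brain neutrophils had 0 of 269223 corrected counts. Bcl2l1 was highest in endothelial cells at 1.02, against 0.493 in microglia. Pmaip1 (1.37 against 0.429) and Bax (1.40 against 0.906) were higher in the border cluster than in microglia, and Bcl2l11 held 0.957 in the T and NK marker cluster.

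No member was called between CCR2-/- and CCR2+/- brains, which differ in the chemokine receptor that brings monocytes out of the bone marrow. Corrected counts were summed per sample and compared between 2 CCR2-/- and 2 CCR2+/- samples by limma. In microglia 0 of 10 members passed, where 0.485% of 10713 genes did. An unadjusted limma p under 0.05 was found for 3 of the 10, beside 952 of the 10713 genes. In the border cluster 0 of 9 passed (0.229% of genes), in endothelial cells 0 of 6 (0.137%), in the T and NK marker cluster 0 of 8 (0.0141%) and in a low-RNA cluster with no class name 0 of 10 (0.101%). With so few genes called in all, a count of 0 members is what the background gives. At an unadjusted p under 0.05, limma counted 1 member in endothelial cells, beside 736 of 9485 genes, and none in the 3 other clusters.

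The member with the lowest p in microglia was Pmaip1, at 0.399 and 0.309 in CCR2+/- against 0.504 and 0.497 in CCR2-/- samples, a log2 difference of 0.51 (SE 0.158; unadjusted p = 0.00414, limma adjusted p = 0.231). The genotypes did not overlap. Bcl2 held 0.241 and 0.150 against 0.132 and 0.107 (-0.67; limma adjusted p = 0.418), and Bid 0.439 and 0.485 against 0.411 and 0.300 (-0.39; limma adjusted p = 0.484). Mcl1 held 14.5 and 15.7 against 15.3 and 15.7, and the 95% interval of its log2 difference ran from -0.17 to 0.24. Bcl2a1b held 3.92 and 3.88 against 4.31 and 4.43 (0.17; limma adjusted p = 0.645) and Bax 0.951 and 0.999 against 0.839 and 0.846 (-0.21; 0.634).

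In the border cluster Bcl2a1b held 6.37 and 6.51 in CCR2+/- against 5.39 and 5.44 in CCR2-/- samples (-0.24; limma adjusted p = 0.789), and Mcl1 12 and 12.1 against 9.79 and 11.6. Bcl2a1d (2.94 and 1.78 against 3.15 and 2.88), Bcl2a1a (1.17 and 1.35 against 1.24 and 1.5) and Pmaip1 (1.47 and 0.930 against 1.87 and 1.38) overlapped between genotypes. Bax held 1.67 and 1.20 against 0.663 and 1.79. Without CCR2-/- sample 2 the Bax difference was -1.05 and passed (limma adjusted p = 0.0333), so its call rests on which sample is used. In endothelial cells Bcl2l1 held 1.76 and 0.549 against 0.491 and 0.724 (-0.71; limma adjusted p = 0.745), and without CCR2+/- sample 2 it was -1.54 and passed (0.0383). In the T and NK marker cluster Bcl2 held 6.72 and 5.45 against 4.43 and 5.25 (-0.32; limma adjusted p = 0.989). No gene of the 5 apoptosis lists was called in any of the 5 clusters.

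**Figure D5:**
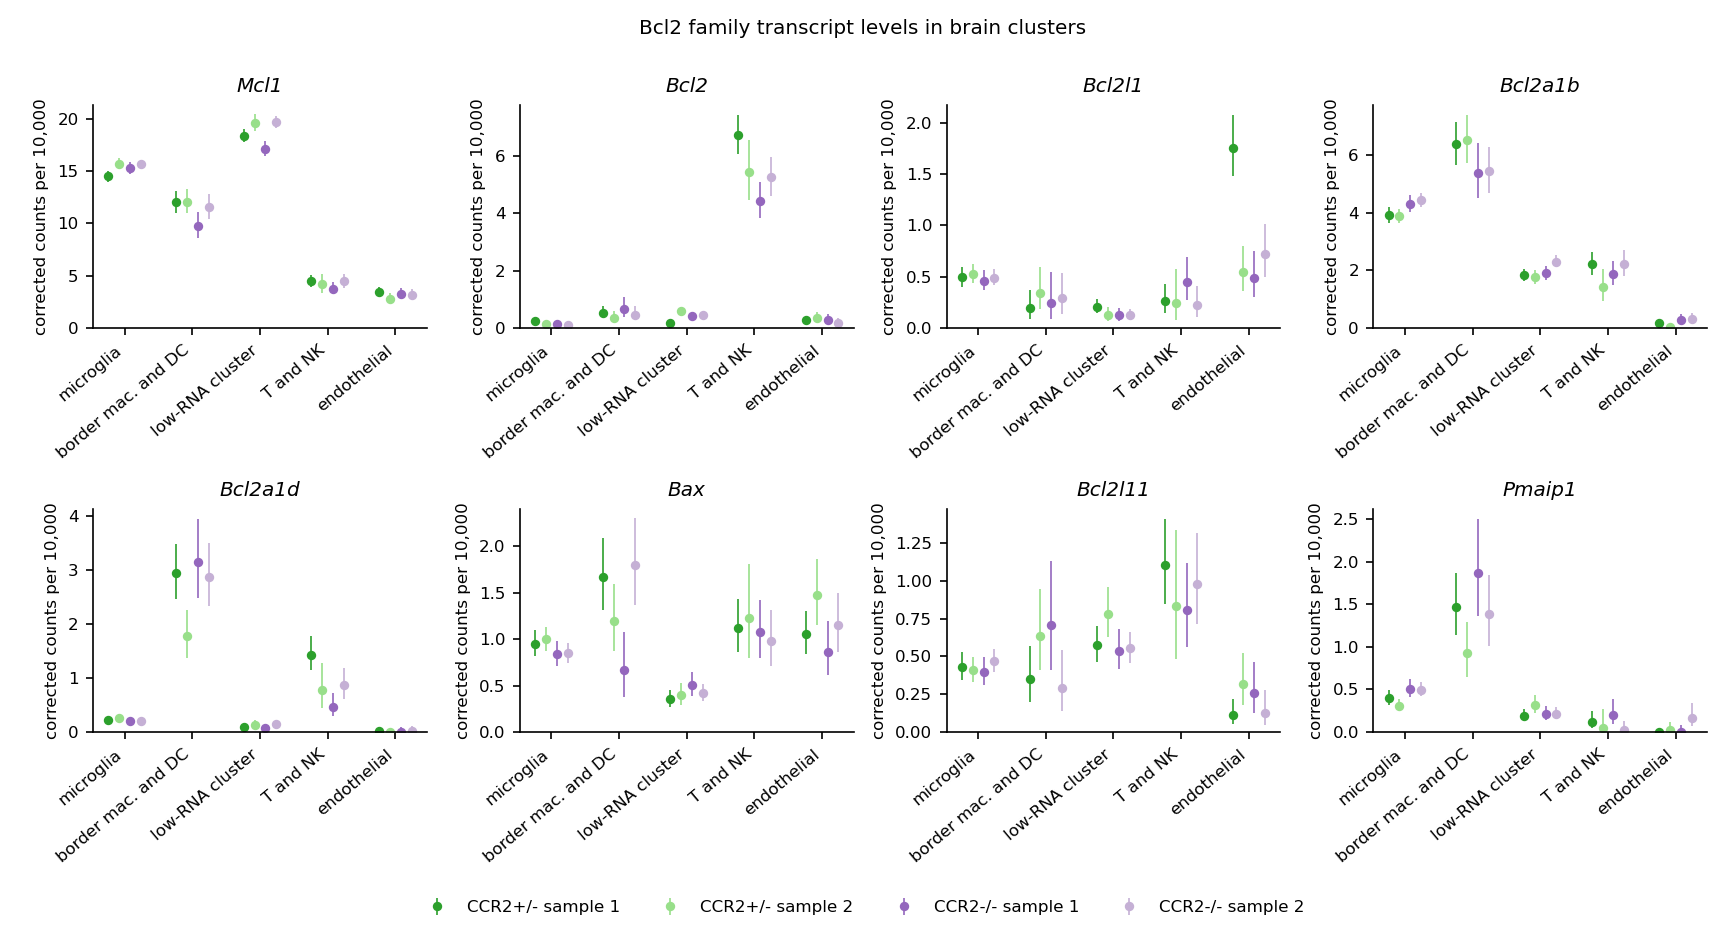
Levels (corrected counts per 10000) of 8 members in 5 brain clusters, 1 point per CCR2+/- or CCR2-/- sample. Bcl2a1b is highest in the border cluster and next in microglia, Bcl2 in the T and NK marker cluster, and the genotypes lie close together for Mcl1 in microglia (14.5 to 15.7).

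For 5 members the genes with the most similar pattern over 10 units of cell class and sample were listed in each blood table, by the lower of the Pearson correlations of log2 levels. The units share the library and the hashed samples, so the values are a description. Mcl1 was followed most closely by Iqgap1 (0.984 in naive and 0.983 in metastasis-bearing mice), Trim30b (0.985 and 0.983) and Ypel3 (0.975 and 0.979). Bcl2 was followed by Nup210 (0.987 and 0.988), Zfp260 (0.987 and 0.990) and Dph5 (0.984 and 0.980), and Bax by Snrpb2 (0.985 and 0.977), Cycs (0.979 and 0.972) and Psmb6 (0.970 and 0.977). The patterns of Bcl2a1b and Pmaip1 had looser companions: Sh3bgrl (0.909 and 0.828), Tifa (0.879 and 0.815) and Ms4a4c (0.866 and 0.794) for Bcl2a1b, and Clec12a (0.901 and 0.879), Arpc3 (0.869 and 0.904) and Lilra6 (0.912 and 0.862) for Pmaip1.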

How the data were processed

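RNA, surface antibody tags and hashing tags were measured in 1 pooled library of 8 mouse samples. The submitters' processing notes name Cell Ranger 3.1 and the mouse build mm10. The authors deposited natural log (ln) values per cell and gene, and these were whole numbers once the log of 1 plus the value was undone. They are taken to be depth-corrected counts from the correction columns in the deposited cell descriptions, with 1 correction per table. Such a correction raises shallow cells and lowers deep ones. The deposited cell descriptions also give raw UMI and tag counts per cell, the authors' clusters, hashtags and antibody gates, with gate thresholds not given in the sources used here. Raw counts per gene were not used here.

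Corrected counts were summed per class and sample and scaled to 10000 per class. Cells with a barcode in more than 1 table, or with an own-hashtag share under 0.5, were left out. Clusters were named by markers raised at least 2-fold, with at least 3 such markers. The members and lists were chosen with earlier results of these data known. The text names all 10 members, up to 4 genes of each list with the largest difference, and the 3 genes most similar to 5 members with a mean level of at least 0.2. Classes needed at least 20 cells per brain sample, and 50 cells for similarity. Differences between gates and between brain genotypes were fitted with limma 3.58.1 in R 4.3.3 on log2 values with a pseudocount of 1 count, a mean-variance trend and genes of at least 20 corrected counts, at an adjusted p of 0.05. Log2 values with a pseudocount understate differences of low genes. Limma pools the spread over genes, and an exact permutation test of 2 against 2 samples cannot go below p = 0.333. Intervals cover counting error only.

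Tested on simulated data with 200 genes changed 2-fold, the microglia fit recovered 72% of them among 10588 genes, with 4.64% of calls false. The naive gate fit recovered 19% among 11094 genes, with 0 false calls. Alternatives covered the cell filter, scaling, pseudocount, thinning, depth windows, the block, the trend, the filter and each sample left out.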

Additional observations from a re-analysis of the deposited data

Results flagged for a closer look

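In neutrophils, Pmaip1 was higher in Hom than in Het blood of naive mice and lower in Hom than in Het blood of metastasis-bearing mice, and the log2 ratios differed by 1.54. Bcl2 in the T cell clusters was likewise higher in Hom in naive and lower in Hom in metastasis-bearing mice, a gap of 0.82 (the naive cluster also holds NK cells). Each of these groups is 1 sample, and neither difference was tested.

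In the brain, 3 members had CCR2-/- samples on opposite sides of the CCR2+/- samples in different clusters. Bcl2a1b was lower in both CCR2-/- samples of the border macrophage and dendritic cell cluster and higher in both of 3 other clusters. The log2 difference of the border cluster minus the other was -1.74 for endothelial cells, -0.46 for the low-RNA cluster and -0.41 for microglia. The Bax difference in the T and NK marker cluster minus that in the low-RNA cluster was -0.49, and that in the low-RNA cluster minus that in microglia was 0.51. For Bid the T and NK marker cluster minus microglia gave 1.25. These differences between clusters were not tested, and no member passed limma's adjusted threshold in any of the clusters. With 2 samples per genotype, an exact permutation test cannot go below p = 0.333 even where the genotypes do not overlap. The share of all genes that meet the same rule was not counted, so nothing particular to the members is read from it.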

How the results depend on the processing

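No paired analysis was possible because the hashtag names carry no replicate number shared by CCR2+/- and CCR2-/- samples and each blood group is 1 sample. A fit per authors' cluster was the same as the one given, since each compared class is 1 cluster. Over 246 results and 1609 alternative values, 134 of the values concern counts of genes past the threshold or the Mcl1 ratio, of which 80 stayed within the limits given, 53 moved and 1 reversed. The other 1475 concern single genes or members: 1148 stayed within their limits, 316 moved, 7 lost and 3 gained a call, and 1 reversed. The limit was the SD between samples for cluster differences and the counting interval for ratios. For limma fits it was chiefly the same side and call. A value that moved may have kept its side, as did naive Bcl2 against B cells, from -4.63 to -3.13 with all deposited cells.

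Thinning each cell to 1000 corrected counts lowered the number of genes at least 2-fold apart in naive neutrophils from 6017 to 3762 against B cells, 5655 to 2643 against T and NK cells and 4216 to 1818 against monocytes. In metastasis-bearing mice the numbers went from 5668 to 3223, 5045 to 2256 and 4678 to 2582. Genes past 1.5-fold between Hom and Het over the 4 classes went from 4294 to 2379 in naive and from 3205 to 1801 in metastasis-bearing mice. Among cells of 2500 to 6000 raw UMIs the numbers were 3164 against T and NK cells and 2216 against monocytes in naive, and 3290 and 2992 in metastasis-bearing mice. Scaled by raw totals, 7209 and 7835 genes were apart against naive and metastasis-bearing monocytes. On that scale Mcl1 in naive neutrophils against monocytes reversed, from 1.77 to -0.17. The Mcl1 log2 ratio of metastasis-bearing to naive Het neutrophils was 0.14 after thinning and reversed to -0.0061 as corrected counts per cell. With either sample of a table alone, counts ran from 5769 to 5995 against B cells, 4629 to 5449 against T and NK cells and 3571 to 4275 against monocytes in naive, and from 4926 to 5624, 4421 to 4471 and 4257 to 4705 in metastasis-bearing mice.

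The brain counts called by limma were the least stable. Microglia had 52 genes, 93 without the filter, 0 without the trend, 88 at an own-hashtag share of 0.8, 18 after thinning, and 30 to 127 without 1 sample. The border cluster had 16, 80 without the filter, 0 without the trend, 1 after thinning, and 29 to 246 without 1 sample. Endothelial cells had 13, 0 without the trend, 0 at a share of 0.8, and 1 to 103 without 1 sample. The low-RNA cluster had 10, 0 with all deposited cells, 5 without the filter, 0 without the trend, 5 at a share of 0.8, 0 after thinning, and 0 to 32 without 1 sample. The T and NK marker cluster had 1, 0 with all deposited cells, 0 without the filter, 0 without the trend, 4 at a share of 0.8, 0 after thinning, and 0 to 4 without 1 sample. Neutrophil levels of Bcl2 and Bcl2a1d rest on under 20 counts per sample, which limits their folds.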

Other observations

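Clusters that entered no comparison also carried the members. The low-RNA cluster of blood, which has no class name and a median of 1109 and 1058 raw UMIs per cell in naive and metastasis-bearing mice, held Mcl1 at 10.1 and 9.57 and Bcl2 at 2.72 and 2.99 per 10000. Platelets held Mcl1 at 6.27 and 12.2, with 0 and 1 Bcl2 counts. The NK cell cluster of metastasis-bearing mice, 59 cells, held Bcl2 at 4.47 in Het and 2.94 in Hom and Bcl2l11 at 1.06 and 1.04.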
